A study of Mus musculus with 24 samples.

Results

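The subject is a set of 10 genes of blood vessel endothelium and of vessel growth, Pecam1, Cdh5, Emcn, Mcam, Kdr, Tek, Tie1, Angpt2, Vegfa and Vegfb. They were chosen by name, and every probe that the platform annotation assigns to them was taken. They are 10 of the 19053 genes named on the array, and their 19 probes are among 45281. Male C57Bl/6J mice had been kept on 1 of 3 diets, and Illumina mouse expression arrays were run on their brown fat (brown adipose tissue, BAT) and white fat (white adipose tissue, WAT). The diets were low in fat, or high in fat (HFD) from corn oil, or an HFD enriched in the omega-3 fatty acids eicosapentaenoic and docosahexaenoic acid (EPA/DHA), with 4 arrays for each diet in each tissue and 24 in all. The animals had been picked to stand for their diet group by body weight and plasma lipids, and the labels give no genotype beyond the strain, no age, no length of feeding and no WAT depot. The tissue labels name fat whereas the extraction text names skeletal muscle. The arrays of one group are not stated to come from separate mice, so p-values measure the spread between these samples, which may be partly technical.

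Endothelial cells line every vessel of fat and pass oxygen and fatty acids to adipocytes. They are held together by junction proteins such as those encoded by Cdh5 and Pecam1, and they carry the receptor tyrosine kinases encoded by Kdr, Tek and Tie1. Adipocytes and other cells supply ligands: VEGF-A drives vessel growth through the receptor encoded by Kdr, VEGF-B binds the related receptor encoded by Flt1, and angiopoietin-2 modulates signalling through the receptor encoded by Tek.

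Promoter sequence is shown for Vegfb, the gene whose level passed the test between diets, for Vegfa, the other VEGF ligand of the set, and for Mcam, whose tissue difference was the largest of the set. Each run is the 250 bases before a RefSeq start in GRCm38.p6, written 5′ to 3′ on the gene's strand. In the Vegfb window, capitals mark AGGTCA, the half-site bound by nuclear receptors, on either strand. In the other windows, capitals mark GGGCGG, the GC box, on either strand, and neither of those windows holds AGGTCA.
Vegfb, chr19:6987652-6987901, minus strand: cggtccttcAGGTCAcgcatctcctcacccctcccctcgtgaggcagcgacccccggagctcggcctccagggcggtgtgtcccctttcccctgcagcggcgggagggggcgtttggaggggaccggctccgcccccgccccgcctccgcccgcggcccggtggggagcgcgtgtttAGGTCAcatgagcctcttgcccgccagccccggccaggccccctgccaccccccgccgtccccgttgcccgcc
Vegfa, chr17:46032378-46032627, minus strand: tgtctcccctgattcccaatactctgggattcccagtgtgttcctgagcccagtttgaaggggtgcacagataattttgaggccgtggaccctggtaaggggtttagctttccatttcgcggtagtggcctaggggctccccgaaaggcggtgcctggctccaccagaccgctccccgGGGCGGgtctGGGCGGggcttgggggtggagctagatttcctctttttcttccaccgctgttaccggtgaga
Mcam, chr9:44134408-44134657, plus strand: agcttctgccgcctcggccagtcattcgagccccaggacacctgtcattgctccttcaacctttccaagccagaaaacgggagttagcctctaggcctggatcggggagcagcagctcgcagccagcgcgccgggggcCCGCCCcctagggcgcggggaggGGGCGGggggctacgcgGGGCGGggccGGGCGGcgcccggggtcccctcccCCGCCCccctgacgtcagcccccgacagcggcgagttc
AGGTCA was found 2 times in the Vegfb window. GGGCGG was found 4 times there, 2 times in the Vegfa window shown and 5 times in the Mcam window, with no match overlapping another. Of 32851 RefSeq windows of this length, 14.0% held AGGTCA and 32.7% held GGGCGG, so neither is rare. Windows were at hand for 7 of the 10 genes, and for Vegfa at 2 starts. Among them AGGTCA was not particular to Vegfb: the Emcn window, not shown, also held it 2 times. These matches describe the letters only.

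The values are log2 expression, with a floor near 7 on this scale. Values reached 14.79, and the mean correlation of an array with the others of its tissue was 0.969 to 0.992. Ucp1, the uncoupling protein of brown adipocytes, read 13.55 to 14.41 in BAT and 7.08 to 8.02 in 10 of the 12 WAT arrays. It read 10.63 in WAT replicate 2 on EPA/DHA and 9.38 in WAT replicate 4 on corn oil, and where their removal changes a result its value without them is given. Transcripts of 6 liver genes were present in WAT (mean 9.22 to 12.49 per array), and transcripts of skeletal muscle varied widely in BAT (mean of 9 genes, 7.76 to 12.12). The liver list held 8 genes, and the others, Alb and Fgb, were too dim in both tissues to pass the filter on dim probes, so the mean leaves them out. Mean levels of 10 macrophage genes were 8.70 to 9.30 in WAT and 7.51 to 7.89 in BAT, and those of 7 fibroblast genes were 10.18 to 10.50 and 8.47 to 9.27. The mean of 8 adipocyte genes was 10.90 to 11.19 in WAT and 9.94 to 10.35 in BAT. On each diet 5 of the 8 were higher in WAT and 3, Plin1, Pparg and Fabp4, were lower. The largest WAT minus BAT difference was that of Lep, 5.02, 3.28 and 4.69 on the low-fat, corn-oil and EPA/DHA diets. Adipoq, the adiponectin gene, had group means of 13.42 to 14.31, while the probes of Retn (7.10 to 7.83) and Fabp4 (7.31 to 7.62) stood near the floor.

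Pecam1, Cdh5, Mcam, Tek and Angpt2 were higher in WAT than in BAT on each of the 3 diets, by 0.37 to 2.55 log2 units. Vegfb was lower in WAT on the low-fat and corn-oil diets, and Emcn and Tie1 did not differ past the threshold on any diet. A gene passed when its limma p, adjusted by the Benjamini-Hochberg method over all kept probes, was under 0.05. On the low-fat diet 6 of the 10 genes passed, 5 higher and 1 lower in WAT, where 43.7% of all genes tested passed, 23.3% higher and 20.4% lower. On corn oil 8 passed, 5 higher and 3 lower, against 41.1% of all genes, 22.8% higher and 18.3% lower. On EPA/DHA 5 passed, all of them higher, against 37.7%, 20.1% higher and 17.6% lower. The arrays of the tissues did not overlap for 6, 8 and 4 of the 10 genes, against 40.5%, 42.1% and 38.7% of all genes. The median difference of the 10 was 0.29, 0.27 and 0.18 on the low-fat, corn-oil and EPA/DHA diets, and over all genes it lay between -0.01 and 0. In whole tissue, fewer cells of a type and less RNA per cell cannot be told apart.

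Mcam (chr9:44134658-44142727, GRCm38.p6) encodes CD146, an adhesion molecule of endothelial junctions that pericytes also carry, and it showed the widest separation of the 2 tissues among the 10 genes. On the low-fat diet it read 10.80, 11.35, 11.12 and 10.79 in WAT and 8.65, 8.40, 8.32 and 8.50 in BAT. On corn oil it read 11.18, 10.73, 11.08 and 11.37 in WAT against 8.97, 9.05, 9.24 and 9.0 in BAT. On EPA/DHA it read 10.24, 10.67, 10.70 and 10.64 in WAT against 8.70, 8.71, 8.75 and 8.48 in BAT. No WAT array came near a BAT array. The difference was 2.55 ± 0.14 (SE) on the low-fat diet, 2.03 ± 0.14 on corn oil and 1.90 ± 0.14 on EPA/DHA, with limma adjusted p of 7.92e-12, 2.04e-10 and 7.71e-10. Both dimmer Mcam probes passed on each diet as well, with differences of 1.26 to 1.59 and of 1.43 to 1.91. The mean of 10 pericyte and smooth muscle genes was 8.12 to 8.46 in WAT and 8.30 to 8.54 in BAT. On the 3 diets 4, 2 and 2 of these genes were higher in WAT, against 23.3%, 22.8% and 20.1% of all genes. Lower in WAT were 4, 5 and 5, against 20.4%, 18.3% and 17.6%.

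Cdh5 (chr8:104101613-104144504) encodes VE-cadherin, the adherens junction protein of endothelium. In WAT it read 9.05, 9.28, 9.11 and 9.46 on the low-fat diet, 9.17, 9.07, 9.58 and 9.17 on corn oil, and 8.90, 8.83, 9.08 and 8.95 on EPA/DHA. In BAT its means were 8.35 ± 0.09 (SD, n = 4), 8.45 ± 0.07 and 8.34 ± 0.18 in the same order, and the highest BAT array stood at 8.54. Every WAT array lay above every BAT array. WAT exceeded BAT by 0.87 ± 0.10 (SE), 0.80 ± 0.10 and 0.60 ± 0.10 (limma adjusted p = 7.53e-07, 2.73e-06 and 0.000106). A dimmer Cdh5 probe did not show this: its differences were 0.08, 0.22 and 0.08, and none passed (limma adjusted p = 0.574, 0.0822 and 0.602).

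Pecam1 (chr11:106654213-106715281) encodes CD31, a junction protein shared by endothelium, platelets and some leukocytes. It averaged 9.09 ± 0.11 (SD, n = 4), 9.14 ± 0.17 and 9.03 ± 0.17 in WAT and 8.57 ± 0.15, 8.66 ± 0.09 and 8.43 ± 0.18 in BAT on the low-fat, corn-oil and EPA/DHA diets. The lowest WAT array, 8.84, was above the highest BAT array, 8.77. The differences were 0.51, 0.47 and 0.60, each with an SE of 0.10 (limma adjusted p = 0.000352, 0.000824 and 7.58e-05). A second probe passed on each diet with 0.27, 0.40 and 0.30. The third, near the floor, passed on the low-fat diet only, with 0.11. Since leukocytes and platelets carry this protein, their lists stand beside it: 9, 8 and 8 of 10 macrophage genes were higher in WAT on the 3 diets. So were 1, 2 and 2 of 6 platelet and red cell genes, and 23.3%, 22.8% and 20.1% of all genes. The platelet gene Pf4 was higher in WAT by 2, 1.69 and 1.68, while the platelet genes Ppbp, Gp9 and Itga2b stood near the floor (group means 7.15 to 7.42). The other calls were the red cell genes Alas2 on corn oil and Hba-a1 on EPA/DHA. The part of these cells in the Pecam1 difference was not tested.

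Emcn (chr3:137341062-137431069) encodes endomucin, a sialomucin of capillary and venous endothelium. It averaged 9.83 ± 0.14 (SD, n = 4), 9.95 ± 0.13 and 10.01 ± 0.27 in WAT and 9.77 ± 0.22, 9.77 ± 0.04 and 10.02 ± 0.20 in BAT. The tissues overlapped on each diet, and the differences of 0.07, 0.18 and -0.01 did not pass (limma adjusted p = 0.72, 0.288 and 0.947). Their 95% confidence intervals ran from -0.19 to 0.32, from -0.08 to 0.44 and from -0.27 to 0.24.

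**Figure D1:**
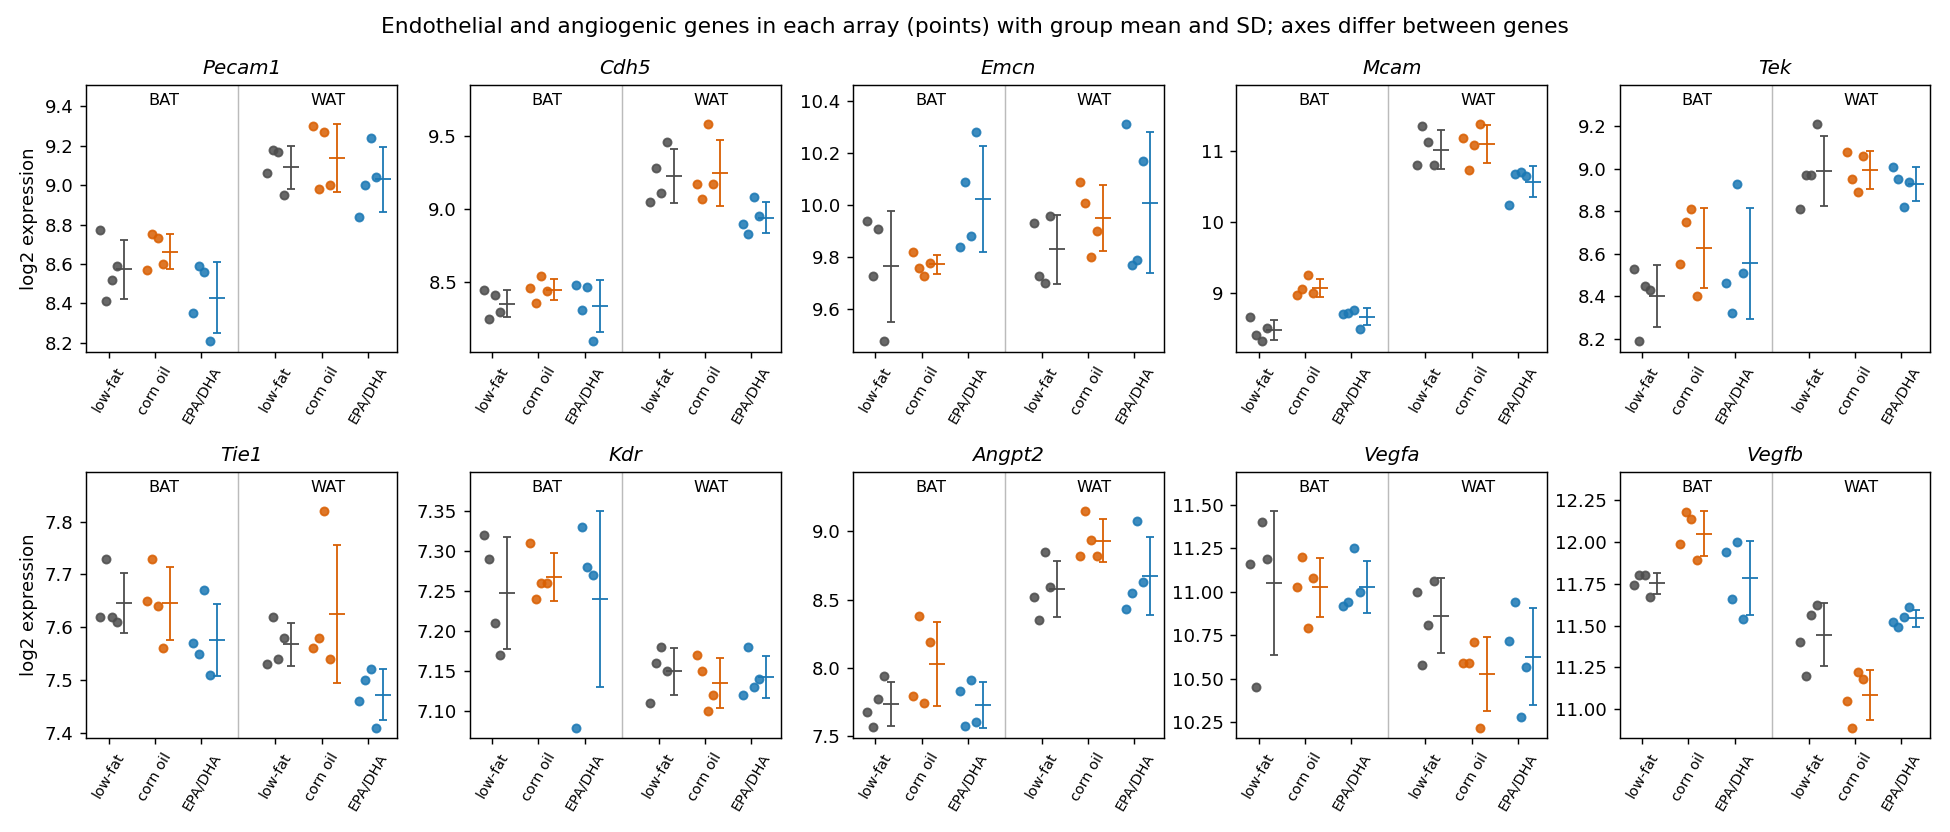
Log2 expression of the 10 genes (1 panel each, brightest probe, vertical axes differ) in BAT and WAT on the low-fat diet (grey), corn-oil HFD (orange) and EPA/DHA HFD (blue). Points are single arrays, 4 per group, and bars are the mean and SD. Mcam, Cdh5, Pecam1 and Angpt2 separate the tissues on each diet, Emcn and Tie1 overlap, and Vegfb is lowest in WAT on corn oil.

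Of the receptor genes, Tek (chr4:94739086-94874976), which encodes the angiopoietin receptor TIE2, was higher in WAT. It averaged 8.99 ± 0.17 (SD, n = 4), 8.99 ± 0.09 and 8.93 ± 0.08 in WAT and 8.40 ± 0.15, 8.63 ± 0.19 and 8.56 ± 0.26 in BAT on the low-fat, corn-oil and EPA/DHA diets. The tissues did not overlap on the first 2 diets, and on EPA/DHA BAT replicate 3 reached 8.93, above the lowest WAT array at 8.82. The differences were 0.59, 0.37 and 0.38, each with an SE of 0.11 (limma adjusted p = 0.000282, 0.0152 and 0.0141). The call was lost on corn oil without BAT replicate 4 (adjusted p = 0.0668) and on EPA/DHA without BAT replicate 2 (0.0626).

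Tie1 (chr4:118471191-118489849), which encodes an orphan receptor that pairs with TIE2, read 7.41 to 7.82 in WAT and 7.51 to 7.73 in BAT, near the floor. Its means were 7.57 ± 0.04 (SD, n = 4), 7.62 ± 0.13 and 7.47 ± 0.05 in WAT and 7.64 ± 0.06, 7.64 ± 0.07 and 7.58 ± 0.07 in BAT. The tissue differences of -0.08, -0.02 and -0.10 did not pass (limma adjusted p = 0.282, 0.814 and 0.158). Kdr (chr5:75932827-75979072) encodes VEGFR2, the main VEGF-A receptor of endothelium, yet its brighter probe read only 7.08 to 7.33 in BAT and 7.10 to 7.18 in WAT. It passed on corn oil, with a WAT minus BAT difference of -0.13 ± 0.04 (SE; limma adjusted p = 0.0147), and not on low-fat or EPA/DHA, with -0.10 ± 0.04 on each (0.069 and 0.078). Without EPA/DHA BAT replicate 1, whose 7.08 was the lowest BAT value, it passed on low-fat (adjusted p = 0.0137) and on EPA/DHA (-0.15, adjusted p = 0.00121). It passed on both also with array weights (0.0451 and 0.0368), and on low-fat without low-fat BAT replicate 4 (0.0273). Its second probe lay below the filter. So close to the floor, these probes give little information on the level of Kdr, and differences there can be compressed.

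Angpt2 (chr8:18690263-18741562) encodes angiopoietin-2, a ligand that endothelium releases during vessel remodelling. In WAT it read 8.52, 8.35, 8.85 and 8.59 on the low-fat diet, 8.82, 9.15, 8.94 and 8.82 on corn oil, and 8.43, 8.55, 9.08 and 8.63 on EPA/DHA. In BAT it read 7.67, 7.56, 7.77 and 7.94 on the low-fat diet, 7.79, 8.38, 7.74 and 8.19 on corn oil, and 7.83, 7.57, 7.91 and 7.60 on EPA/DHA. The tissues did not overlap on any diet. The differences were 0.84, 0.91 and 0.94, each with an SE of 0.15 (limma adjusted p = 0.000119, 5.53e-05 and 4.29e-05). A second Angpt2 probe, with a mean of 7.12, did not pass.

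Both VEGF ligands ran the other way. Vegfa (chr17:46016993-46032377) averaged 10.86 ± 0.21 (SD, n = 4), 10.53 ± 0.21 and 10.63 ± 0.28 in WAT and 11.05 ± 0.41, 11.02 ± 0.17 and 11.03 ± 0.15 in BAT. By its brightest probe the differences were -0.19, -0.50 and -0.40, each with an SE of 0.17, and only that on corn oil passed (limma adjusted p = 0.428, 0.0298 and 0.0856). The corn-oil call was lost without WAT replicate 4 or any of BAT replicates 1, 2 and 4 of that diet, with an adjusted p of up to 0.11, and when both WAT arrays with raised Ucp1 were left out (-0.39, adjusted p = 0.0978). Without low-fat BAT replicate 2, the array with the lowest mean correlation with its tissue, the low-fat difference was -0.39 and passed (adjusted p = 0.0459), and that on EPA/DHA passed as well (0.0266). The EPA/DHA difference also passed without WAT replicate 2 of that diet (adjusted p = 0.0409) and without both WAT arrays with raised Ucp1 (0.0358). With the mean of its kept probes, Vegfa was lower in WAT by -0.53 on low-fat (adjusted p = 0.0054) and by -0.67 on EPA/DHA (0.000887). Its second probe was lower in WAT on each diet, by -0.88, -0.80 and -0.95, with an SE of 0.14 and limma adjusted p of 3.4e-05, 0.00011 and 1.67e-05. The probes of Vegfa thus agree in sign and differ in size, and the transcripts each reads were not determined here.

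Vegfb (chr19:6982472-6987651) was lower in WAT by 0.31, 0.97 and 0.24 log2 units on the low-fat, corn-oil and EPA/DHA diets, each with an SE of 0.10. The first 2 passed and the third did not (limma adjusted p = 0.0193, 1.34e-07 and 0.075). The low-fat call was lost without WAT replicate 2 of that diet (adjusted p = 0.0881). The EPA/DHA difference passed without BAT replicate 4 of that diet (-0.32, adjusted p = 0.0174) and with the mean of the liver or skeletal muscle genes as a covariate (0.0384 and 0.0436). On corn oil the lowest BAT array, 11.89, stood above the highest WAT array, 11.22.

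**Figure D2:**
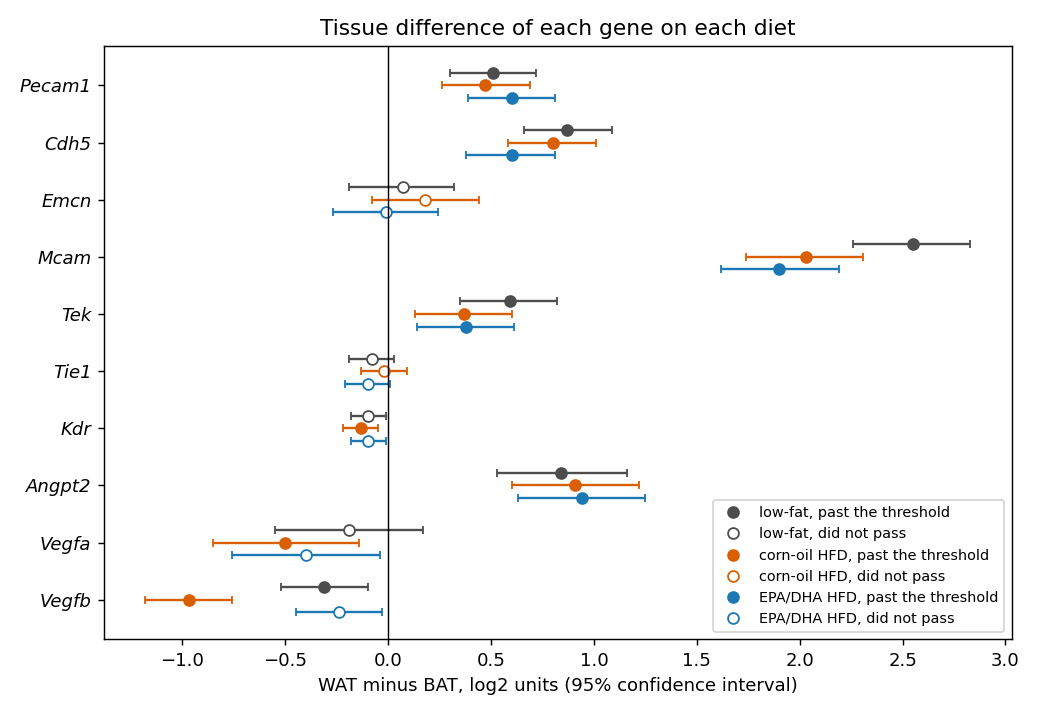
WAT minus BAT difference in log2 units (horizontal axis) for each of the 10 genes (vertical axis) on the low-fat diet (grey), corn-oil HFD (orange) and EPA/DHA HFD (blue), with 95% confidence intervals. Filled points passed the threshold. Mcam stands furthest to the right, at 2.55 on the low-fat diet, and Vegfb on corn oil furthest to the left, at -0.97.

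Between diets within a tissue, only Vegfb in WAT passed, near the threshold: it was higher on EPA/DHA than on corn oil. In WAT it read 11.40, 11.20, 11.56 and 11.62 on the low-fat diet, 11.05, 10.89, 11.22 and 11.18 on corn oil, and 11.52, 11.49, 11.55 and 11.61 on EPA/DHA. All 4 EPA/DHA arrays lay above all 4 corn-oil arrays, while the low-fat and corn-oil arrays overlapped by 1 pair, 11.20 and 11.22. EPA/DHA exceeded corn oil by 0.46 ± 0.09 (SE; limma adjusted p = 0.0366), and 1 of 10 genes passed where 2.34% of all genes tested did. Corn oil was below low-fat by a difference of -0.36 ± 0.09 that did not pass (limma adjusted p = 0.0705), and none of the 10 genes passed there against 3.87% of all genes, with 2 of the 10 and 19.7% of all genes at an unadjusted p under 0.05. The Vegfb difference passed without low-fat replicate 2 (-0.44, adjusted p = 0.0261). EPA/DHA differed from low-fat by 0.10 ± 0.09 (limma adjusted p = 0.871), with none of the 10 past the threshold against 0.03% of all genes, and with 2 of the 10 and 9.06% of all genes at an unadjusted p under 0.05.

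The EPA/DHA against corn-oil call of Vegfb stood near the threshold. It was kept in 3 of the 12 fits that left out 1 array, with differences of 0.39 to 0.50 and an adjusted p of up to 0.0969. The 9 arrays whose removal ended the call were all 4 on corn oil, all 4 on EPA/DHA and replicate 1 on the low-fat diet. Without the 2 arrays with raised Ucp1 the difference was 0.50 (adjusted p = 0.0839), and with the liver gene mean as a covariate it was 0.39 (adjusted p = 0.0755). Beside it, the mean of 7 brown adipocyte genes in WAT was 8.17 ± 0.49 (SD, n = 4) on corn oil and 8.78 ± 0.79 on EPA/DHA, and none of the 7 passed. Of their differences 6 were positive and 1 negative, with a median of 0.41 against 0 over all genes. By limma 4 of the 7 had an unadjusted p under 0.05, where 17.6% of all genes did. Their part in the Vegfb difference was not tested. The 8 adipocyte genes averaged 11.01 ± 0.10 and 11.06 ± 0.14, and the 6 liver genes 11.27 ± 1.31 and 10.26 ± 1.06. Of the 8 adipocyte genes 7 were higher on EPA/DHA than on corn oil, with a median of 0.10, and 1, Lep, was lower by a difference of -0.57. None of the 8 passed.

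In BAT the diet means stood in another order. Vegfb read 11.74, 11.80, 11.80 and 11.67 on the low-fat diet, 11.99, 12.18, 12.14 and 11.89 on corn oil, and 11.94, 11.66, 12 and 11.54 on EPA/DHA. The corn-oil arrays were all above the low-fat arrays, and the EPA/DHA arrays overlapped both. Corn oil minus low-fat was 0.30 ± 0.10 (SE) and EPA/DHA minus corn oil was -0.27 ± 0.10, and neither passed within BAT (limma adjusted p = 0.459 and 0.999). The difference between the tissues in the diet effect was tested itself. The corn-oil effect in WAT minus that in BAT was -0.66 ± 0.14 (SE; limma adjusted p = 0.043), and that of EPA/DHA against corn oil was 0.72 ± 0.14 (limma adjusted p = 0.0337). Vegfb was the 1 gene of the 10 to pass each of these tests, which 0.652% and 0.252% of all genes passed. Both rest on the same corn-oil arrays, and they were kept in 9 and 13 of 24 fits that left out 1 array, with an adjusted p of up to 0.101 and 0.0879. Neither passed without the 2 WAT arrays with raised Ucp1, where the values were -0.69 (adjusted p = 0.0699) and 0.77 (0.0596).

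**Figure D3:**
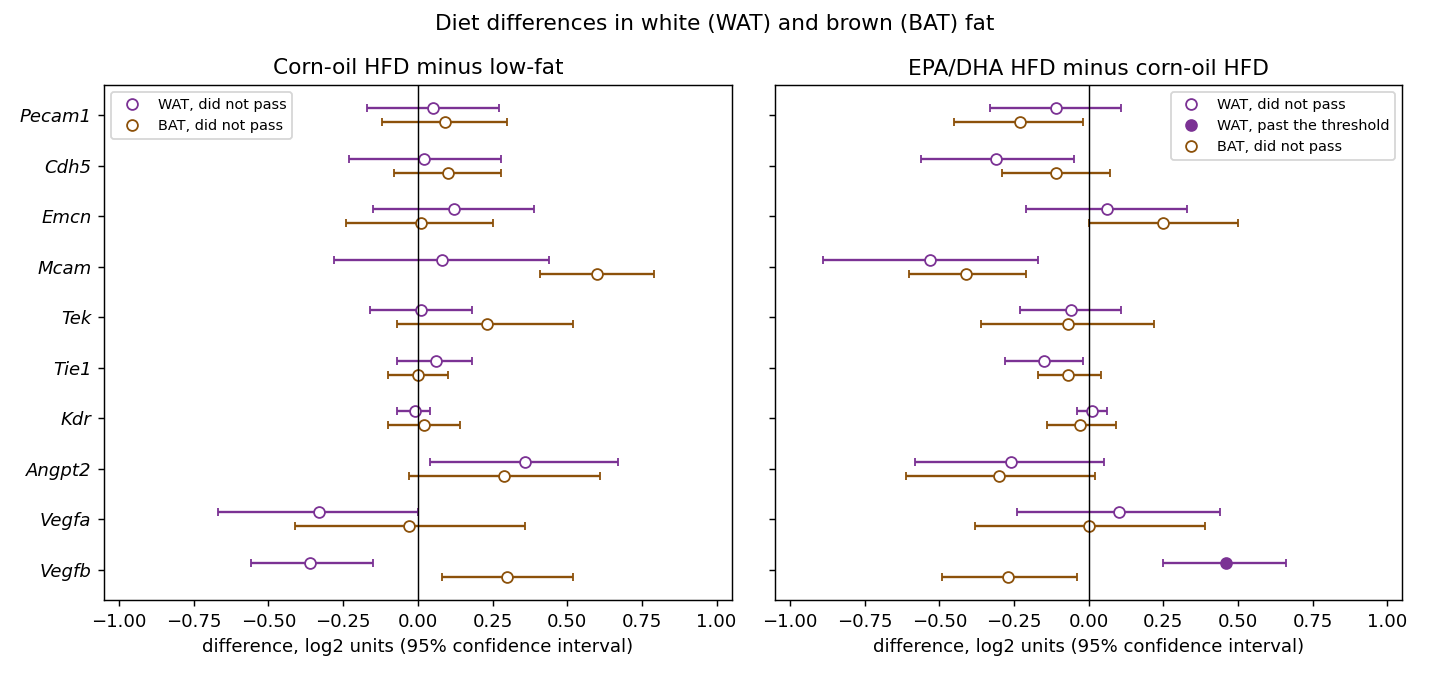
Differences between diets in log2 units (horizontal axes) for the 10 genes in WAT (purple) and BAT (brown), with 95% confidence intervals: corn-oil HFD minus low-fat (left) and EPA/DHA HFD minus corn-oil HFD (right). The 1 filled point, Vegfb in WAT at 0.46, passed the threshold, and the Vegfb points of the 2 tissues lie on opposite sides of 0 in both panels.

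Mcam gave the largest diet differences of the 10 genes, none of which passed. In BAT, whose arrays are listed above, all 4 corn-oil values exceeded all 4 low-fat values and all 4 EPA/DHA values. Corn oil minus low-fat was 0.60 ± 0.09 (SE; 95% confidence interval 0.41 to 0.79), with an unadjusted p of 2.57e-05 from limma and an adjusted p of 0.174. No probe had a smaller adjusted p in that comparison. Probes with a smaller unadjusted p can share that adjusted value, so it does not rank Mcam first. EPA/DHA minus corn oil was -0.41 ± 0.09 (limma adjusted p = 0.581). The dimmer Mcam probes gave 0.20 and 0.30 for corn oil minus low-fat, and the mean of the 3 probes 0.37 (adjusted p = 0.176). In the fit of all 24 arrays the corn-oil difference had an adjusted p of 0.0536.

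In WAT, Mcam gave a corn oil minus low-fat difference of 0.08 ± 0.16 (SE; limma adjusted p = 0.886), and the tissues' corn-oil effects differed by -0.52 ± 0.19, which did not pass (limma adjusted p = 0.276). By this brightest probe the EPA/DHA arrays were the lowest: all 4 lay below every low-fat and corn-oil array. EPA/DHA minus corn oil was -0.53 ± 0.16 (limma adjusted p = 0.141) and EPA/DHA minus low-fat was -0.45 ± 0.16 (limma adjusted p = 0.538). Without EPA/DHA replicate 1, which read 10.24, the first of these was -0.42 (adjusted p = 0.259). The dimmer probes gave -0.14 and -0.27 for EPA/DHA minus corn oil, and by each of them the EPA/DHA arrays overlapped those of both other diets. Their means were lower on corn oil than on low-fat, 9.31 against 9.42 and 9.69 against 9.85, opposite in sign to the brightest probe.

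Among the junction and receptor genes in WAT, Cdh5 gave an EPA/DHA minus corn oil difference of -0.31 ± 0.12 (SE; limma adjusted p = 0.229), with the groups overlapping by 9.08 and 9.07. Tie1 read 7.46, 7.50, 7.52 and 7.41 on EPA/DHA, 7.56, 7.58, 7.82 and 7.54 on corn oil, and 7.53, 7.62, 7.54 and 7.58 on the low-fat diet. The EPA/DHA arrays lay just below the others, and the difference from corn oil was -0.15 ± 0.06 (limma adjusted p = 0.235), or -0.08 without corn-oil replicate 3. In that comparison the groups of 3 of the 10 genes, Vegfb, Mcam and Tie1, did not overlap, against 10.2% of all genes. For EPA/DHA against low-fat these were Mcam and Tie1, against 4.66% of all genes, and for corn oil against low-fat none, against 12.4%. Pecam1, Emcn, Tek and Kdr differed between WAT diets by -0.11 to 0.18 in all 3 comparisons, with no call.

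Of the remaining ligands in WAT, Angpt2 gave a corn oil minus low-fat difference of 0.36 ± 0.14 (SE; limma adjusted p = 0.245), and EPA/DHA minus corn oil was -0.26 ± 0.14 (limma adjusted p = 0.447). Vegfa was 11, 10.58, 10.81 and 11.06 on the low-fat diet, 10.59, 10.59, 10.71 and 10.22 on corn oil, and 10.72, 10.94, 10.28 and 10.57 on EPA/DHA. Its corn-oil and low-fat arrays overlapped, and the difference of -0.33 ± 0.15 did not pass (limma adjusted p = 0.318).

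In BAT none of the 10 genes passed between diets, nor did more than 1 gene of the whole table: 0% of all genes for corn oil against low-fat, 0% for EPA/DHA against corn oil and 0.00746% for EPA/DHA against low-fat by limma. At an unadjusted p under 0.05, 2, 4 and 2 of the 10 genes passed, and 9.1%, 4.99% and 4.77% of all genes. The groups of Mcam and Vegfb did not overlap for corn oil against low-fat, against 5.15% of all genes. Those of Mcam and Emcn did not overlap for EPA/DHA against corn oil, against 3.71%, and those of no gene of the 10 for EPA/DHA against low-fat, against 2.63%. Emcn in BAT read 9.84, 10.09, 9.88 and 10.28 on EPA/DHA and 9.82, 9.76, 9.73 and 9.78 on corn oil, a difference of 0.25 ± 0.11 (SE; limma adjusted p = 0.999). Angpt2 in BAT was 0.29 ± 0.14 for corn oil minus low-fat (limma adjusted p = 0.655), with replicates 2 and 4 on corn oil, 8.38 and 8.19, above all other BAT arrays. By its brightest probe, Vegfa differed by at most 0.03 in size between BAT diets, with 95% confidence intervals reaching from -0.41 to 0.39. Its second probe averaged 9.65 ± 0.28 (SD, n = 4) in BAT on low-fat, 9.43 ± 0.30 on corn oil and 9.56 ± 0.17 on EPA/DHA.

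A list of 40 further genes of endothelium and angiogenesis was read beside the 10, of which 36 could be tested in WAT and 33 in BAT. On the low-fat, corn-oil and EPA/DHA diets 20, 21 and 15 of the 36 passed between tissues, where 43.7%, 41.1% and 37.7% of all genes did. Higher in WAT were 18, 18 and 14 of the 36, against 23.3%, 22.8% and 20.1% of all genes. The median difference of the 36 was 0.24, 0.29 and 0.14, against -0.01 to 0 over all genes. Ramp2, which encodes an adrenomedullin receptor component, was higher in WAT on the low-fat diet by 1.04 ± 0.17 (SE; limma adjusted p = 6.61e-05), and Cldn5, the tight junction gene claudin-5, by 0.98 ± 0.27 (limma adjusted p = 0.00616). Robo4, an endothelial guidance receptor gene, was higher there by 0.88, and Vegfd, a ligand of lymphatic growth, by 0.86. Vegfd was higher also on corn oil (1.11) and on EPA/DHA (1.15), Plvap, the gene of the fenestral diaphragm protein, by 1.10 on corn oil, and Lmo2, a transcription co-factor gene of blood and endothelium, by 0.88 on EPA/DHA. Nrp2, a VEGF co-receptor gene, was lower in WAT on each diet, Epas1, the gene of the oxygen-sensitive factor HIF-2α, on low-fat and corn oil, and Angpt1, the ligand that activates TIE2, on corn oil.

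Between diets, 2 of these 36 genes passed in WAT, both for corn oil against low-fat, where 3.87% of all genes passed. Plvap rose from 9.07 ± 0.11 (SD, n = 4) to 9.40 ± 0.09, by 0.33 ± 0.07 (SE; limma adjusted p = 0.0386), and Cd93, an endothelial and myeloid surface receptor gene, rose from 9.24 ± 0.05 to 9.56 ± 0.14, by 0.32 ± 0.07 (limma adjusted p = 0.0482). The count of 2 fell to 0 with no filter on dim probes, in the fit of all 24 arrays and without the 2 arrays with raised Ucp1, and to 0 in 7 of 12 fits that left out 1 array. The 10 macrophage genes averaged 8.92 ± 0.14 on low-fat and 9.16 ± 0.12 on corn oil, with none past the threshold by limma (smallest adjusted p = 0.0942). Of their differences 6 were positive and 4 negative, with a median of 0.32 against 0 over all genes. An unadjusted p under 0.05 was reached by 4 of the 10, and by 19.7% of all genes. The part of macrophages in the Cd93 and Plvap differences was not tested. For EPA/DHA against corn oil in WAT none of the 36 passed by limma, with a smallest adjusted p of 0.0555 for the phosphatase gene Ptprb (-0.29 ± 0.07). There 30 of the 36 differences were negative and 6 positive, with a median of -0.14 against 0 over all genes, and 16 had an unadjusted p under 0.05 where 17.6% of all genes did. The mean of the 36 genes was 8.93 ± 0.03 on corn oil, 8.80 ± 0.03 on EPA/DHA and 8.87 ± 0.05 on low-fat. For EPA/DHA against low-fat in WAT none of the 36 passed by limma, with a smallest adjusted p of 0.281, and 4 genes had an unadjusted p under 0.05, as 9.06% of all genes did. In the tests of the diet effects between tissues none of the 36 passed either, with 2 genes for corn oil and 3 for EPA/DHA at an unadjusted p under 0.05, against 13.1% and 8.45% of all genes. In BAT none of 33 passed in any diet comparison, with a smallest adjusted p of 0.453 and 2, 1 and 1 genes at an unadjusted p under 0.05, against the shares of all genes given above for BAT.

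**Figure D4:**
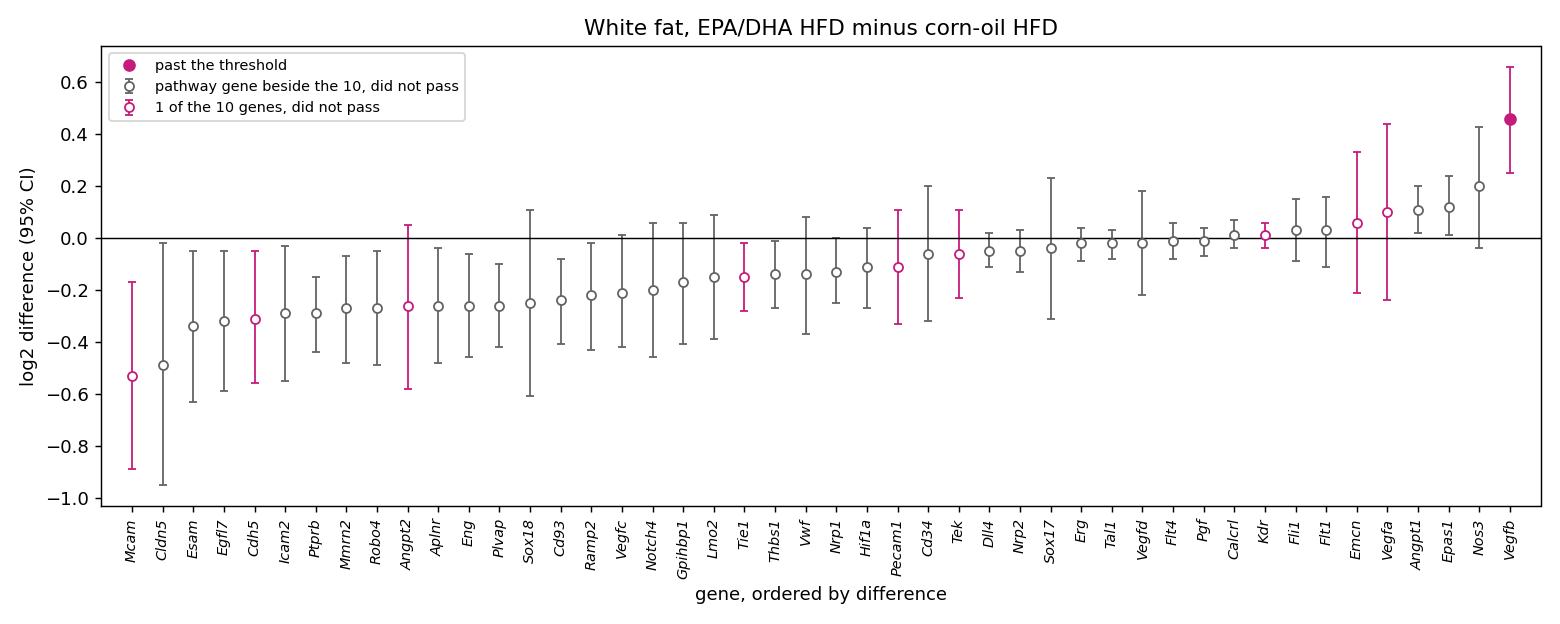
EPA/DHA HFD minus corn-oil HFD in WAT, in log2 units (vertical axis) with 95% confidence intervals, for the 36 further genes (grey) and the 10 genes (pink), ordered by difference. Vegfb, filled, passed the threshold at 0.46, whereas Mcam at -0.53 and Cldn5 at -0.49 did not pass.

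The 10 genes varied together only in part. Over the 12 arrays of one tissue, 90 pairs of genes were compared by permutation with 100000 resamples, and 1 pair had an adjusted p under 0.05. It was Cdh5 with Tie1 in WAT, with Pearson's r of 0.84 (permutation p = 0.00024, adjusted 0.0216) and Spearman's rho of 0.86 (permutation p = 0.00061, adjusted 0.0549). The r was 0.76 without the 2 arrays farthest from the median and 0.76 after the diet means were removed, and in BAT it was 0.22. The arrays of a tissue share the normalisation, so these values describe the arrays. Levels of 12487 genes, the 10 among them, were also compared over 24 arrays after each tissue's mean was subtracted, and the 10 were left out of the listing. Closest to the mean of the 6 endothelial genes Pecam1, Cdh5, Kdr, Tek, Tie1 and Emcn were Fam13c (r = 0.79), Meox2 (0.78), Ets2 (0.76), Nxpe4 (0.74) and Rgl1 (0.73). Those closest to Vegfa were Arid4a (0.82), Tmem68 (0.82), Zfx (0.80), Dusp11 (0.79) and Spata7 (0.77). These are the highest r among the genes compared outside the 10, and they were not tested. Within the 6 endothelial genes, Emcn had a negative r with Pecam1, Cdh5 and Tie1 in both tissues. Its r with Tek was positive in WAT only, and that with Kdr in BAT only.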

How the data were processed

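The authors deposited log2 expression values per probe, made with lumi 2.18.0 per the submitters' processing notes, and the sorted values of any 2 of the 24 arrays differed by at most 0.0069, as after quantile normalisation. Whether the log2 scale is plain or variance-stabilised is not given in the sources used here. Total signal per array can therefore not be compared, detection calls were not used, and the number of arrays limits the precision.

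Gene names came from the platform annotation, updated to RefSeq names (34818 of 34885 probes with 1 symbol matched). Several symbols were given for 18 probes, and 10378 were unnamed here. A gene was represented by its brightest probe over the 24 arrays. Probes with a tissue mean above the 40th percentile (7.11) were kept, 27168 in each tissue and 29493 in either, including 17 of the 19 member probes and the representative probe of all 10 genes. Diets were compared within a tissue over its 12 arrays, and tissues and interactions over all 24, with limma 3.58.1 in R 4.3.3 (two-sided moderated tests, Benjamini-Hochberg adjustment over kept probes, threshold 0.05). The code was tested on simulated data.

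The 10 genes, the lists of other genes, the comparisons and the rule for named genes were chosen with earlier results of these data known. The rule names all 10 genes, up to 4 genes of the endothelial list past the threshold per comparison by size, and the 5 genes most like the endothelial mean and Vegfa. Genes named outside it (Ptprb, Nrp2, Epas1, Angpt1, and Cldn5 where it did not pass) were chosen after their values were seen. The labels do not say that same-numbered arrays belong together, and they were not paired. Alternatives were the filter, centring, renewed quantile normalisation, the prior of the spread, array weights, a replicate block, the mean of a gene's probes, the arrays in the fit and leaving out each array. Leaving out the 2 WAT arrays with raised Ucp1 and the liver and skeletal muscle means as covariates (centred within each tissue) were added after seeing the data.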

Additional observations from a re-analysis of the deposited data

Results flagged for a closer look

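In 60 combinations of gene and group, Dixon's test at the 95% level set 3 single arrays apart from the others of their group. About 1 in 20 groups is set apart by chance. Mcam read 10.24 in WAT replicate 1 on EPA/DHA, below the other arrays at 10.64 to 10.70. Tie1 read 7.73 in BAT replicate 2 on the low-fat diet, above the others at 7.61 to 7.62, and 7.82 in WAT replicate 3 on corn oil, above the others at 7.54 to 7.58. That BAT array also had the lowest mean correlation with its tissue, 0.969, where the next lowest was 0.983.

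The diet effect on Vegfb differed between the tissues by the limma interaction test. For corn oil against low-fat, WAT minus BAT was -0.66 ± 0.14 (SE; adjusted p = 0.043), with -0.36 in WAT and 0.30 in BAT. For EPA/DHA against corn oil it was 0.72 ± 0.14 (adjusted p = 0.0337), with 0.46 in WAT and -0.27 in BAT.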

How the results depend on the processing

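Of 22 differences of single genes past the threshold, none changed sign under any alternative, and 15 of the 19 tissue differences passed in every fit that left out 1 array. The exceptions, Vegfb on low-fat, Tek on corn oil and EPA/DHA, and Vegfa on corn oil, stand with their values in the text. The count of the 10 genes past the threshold for EPA/DHA against corn oil in WAT, 1, was 0 with no filter on dim probes (Vegfb adjusted p = 0.0532), without the 2 arrays with raised Ucp1 (0.0839) and with the liver covariate (0.0755), and 0 to 1 without single arrays. For the tissue difference of the corn-oil effect, the count of 1 was 0 with no filter (0.0601), with a trended and robust prior (0.0517), without the 2 arrays (0.0699) and with the liver covariate (0.0507). For that of the EPA/DHA effect it was 0 without the 2 arrays (0.0596) and with the liver covariate (0.0948). Both were 0 to 1 without single arrays. The filter setting tests more probes and the setting without 2 arrays has fewer samples, but the cause of these losses was not tested in any setting. Counts between tissues were 5 to 7, 6 to 8 and 4 to 6 without single arrays on low-fat, corn oil and EPA/DHA. That for corn oil against low-fat in WAT, 0, ran from 0 to 1.

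With the replicate block, 1 of the 10 genes passed for corn oil against low-fat in WAT, again Vegfb (adjusted p = 0.0252), while the count of all genes went from 517 to 328 and that of the 36 further genes from 2 to 0. The block changed no other count of the 10 genes. Deviations of same-numbered arrays from their group means correlated at -0.36 to 0.54. For replicate 1 across WAT diets they correlated at 0.44 to 0.54 and for replicate 4 across BAT diets at 0.36 to 0.43, but in no comparison were all pairs over 0.1, so the pairing was not used.

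Over all genes, leaving out 1 array gave 173 to 546 calls for corn oil against low-fat in WAT (517 with all) and 118 to 405 for EPA/DHA against corn oil (313 with all). Without the 2 arrays with raised Ucp1 they were 254 and 192, and with the liver covariate the second was 184. EPA/DHA against low-fat, with 4, ran from 0 to 7. In BAT, the fit of all 24 arrays called 78, 3 and 13 genes for corn oil against low-fat, EPA/DHA against corn oil and EPA/DHA against low-fat, where the BAT fit called 0, 0 and 1. The interaction for corn oil, with 93, gave 59 with no filter, 56 without the 2 arrays and 30 to 99 without single arrays, and that for EPA/DHA, with 36, gave 23 to 53. The 36 further genes gave 0 to 1 calls for EPA/DHA against corn oil in WAT. With 4 arrays a group, differences near the floor, such as those of Kdr and Tie1, are limited by signal over background.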
